A study of Homo sapiens with 26 samples.

Results

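The transcriptomes of 17 tetraploid (4N) libraries were compared with those of 9 near-diploid (2N) libraries, which together make up all 26 libraries of the study, with the cell line kept as a block. The members were chosen by their labels alone. Libraries whose names carry S (small) or L (large) and a number are 4N clones, and the parental libraries and those marked 2N1 and 2N2 are 2N. The 4N libraries were 4 from CAL51, a triple negative breast cancer line (1 small and 3 large clones), 6 from HCT116, a colorectal cancer line (3 small and 3 large), and 7 from DLD1, another colorectal cancer line (3 small and 4 large). The 2N libraries were 3 per line, namely the parental population and 2 near-diploid clones. Division had been blocked for 20 hr with 75 µM blebbistatin, a myosin II inhibitor, in the HCT116 and CAL51 cells, or with 1.5 µg/mL dihydrocytochalasin, an actin drug, in the DLD1 cells. After washing and 48 hr of recovery each 4N clone was grown from a single cell. The labels name no drug for the 2N libraries, so a past exposure to the drug and a doubled genome cannot be told apart. Only the DLD1 clones had dihydrocytochalasin, so where DLD1 differs from the other lines, line and drug cannot be told apart either. Every 4N library is a clone whereas 3 of the 9 2N libraries are populations. The labels do not say that libraries came from separate cultures of one clone, so each p-value below measures the spread between these clones and populations.

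A tetraploid cell arises when the genome is replicated and the cell then fails to divide. In human cells the extra centrosomes are known to activate the PIDDosome, in which caspase-2 cleaves MDM2, the ubiquitin ligase that degrades p53. Stabilised p53 then switches on genes for cell cycle arrest (CDKN1A), for DNA repair (DDB2, XPC, POLH), for cell death (BAX, FAS, BBC3) and for its own restraint (MDM2, PPM1D). The comparison asks which genes differed between tetraploid and near-diploid cells in all 3 backgrounds together.

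The promoters of 2 of the p53 targets that lead the comparison are shown here because each holds a match to the p53 response element. The match is printed in capitals within a window of 250 bases before to 50 bases after the gene's start (RefSeq, GRCh38.p14, 5′ to 3′). The window of DDB2, a DNA damage sensor, is chr11:47214724-47215023 on the plus strand. The window of MDM2 is chr12:68808767-68809066, also on the plus strand. Each of the 2 windows lies at a RefSeq start downstream of the first base given below for its gene.
DDB2 promoter: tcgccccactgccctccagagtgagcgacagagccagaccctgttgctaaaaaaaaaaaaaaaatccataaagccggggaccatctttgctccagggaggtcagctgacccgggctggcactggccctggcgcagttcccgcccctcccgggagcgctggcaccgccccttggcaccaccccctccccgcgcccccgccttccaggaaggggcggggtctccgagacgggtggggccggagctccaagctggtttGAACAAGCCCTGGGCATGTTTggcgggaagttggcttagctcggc
MDM2 promoter: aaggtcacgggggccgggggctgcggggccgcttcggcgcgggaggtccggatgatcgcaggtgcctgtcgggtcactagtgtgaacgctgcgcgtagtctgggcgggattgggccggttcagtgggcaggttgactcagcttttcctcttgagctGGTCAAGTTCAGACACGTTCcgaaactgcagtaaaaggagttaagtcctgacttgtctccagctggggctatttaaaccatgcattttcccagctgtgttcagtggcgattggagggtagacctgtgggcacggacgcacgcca
The motif searched was the pair of p53 half-sites, each of 10 bases, at most 1 base apart and with at most 2 mismatches outside the conserved core letters. It reads the same on both strands. The DDB2 match had 0 mismatches and lay at bases 256 to 276 of the window, and the MDM2 match had 2 mismatches and lay at bases 157 to 176. Of 35116 promoter windows in the RefSeq table, 187 (0.533%) held such a match, and by gene it was 184 of 27305 (0.674%). Windows were found for 21 of the 25 p53 targets tested, and 4 of these genes (AEN, DDB2, FAS and MDM2) held a match, in 5 of the 32 windows of the 21 genes. A match is a description of the sequence and no evidence of binding in these cells.

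Each library held 23.5 to 44.5 M reads in genes (median 32.5 M), and 1 read in a gene of 1 kb was worth 0.0246 to 0.0400 FPKM (fragments per kilobase of gene, scaled to the library). Mitochondrially encoded transcripts took 2.42% to 10.1% of the reads. The 9834 genes tested had a mean FPKM of 1 or more in each of the 3 lines, of 58735 in the table. Summed epithelial markers ranged from 235 to 4923 FPKM in the CAL51 4N libraries and from 518 to 1480 FPKM in the CAL51 2N libraries. They ranged from 1348 to 2844 FPKM in the HCT116 4N libraries and 1274 to 1303 FPKM in the HCT116 2N libraries, and from 2142 to 2802 FPKM in the DLD1 4N libraries and 2403 to 2965 FPKM in the DLD1 2N libraries. Immune markers summed to at most 1.70 FPKM in any library. FPKM is relative to the library's total, so a rise of all transcripts together in larger cells would leave it unchanged. In such bulk RNA, fewer cells of a type and less RNA per cell cannot be told apart.

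No gene differed between the 4N and the 2N libraries at an adjusted p below 0.05 (limma with Benjamini-Hochberg adjustment, 0 of 9834 genes, 0% called). The smallest adjusted p was 0.765. At an unadjusted p below 0.05, 611 genes (6.21%) differed, 371 of them higher (3.77%) and 240 lower (2.44%) in 4N. The differences were small. On the log2(FPKM + 1) scale, which understates the change of weakly expressed genes, they ran from −1.24 to 0.86 with a median of 0.006, and 5131 genes (52.2%) were higher in 4N at any p. The 95% interval of the difference lay within ±0.25 for 4387 genes (44.6%), within ±0.5 for 9049 (92.0%) and within ±1 for 9776 (99.4%), with a median half-width of 0.18. These data therefore bound a shared ploidy difference for most expressed genes to less than 0.5 log2 units without showing that it is 0. The difference had the same sign in all 3 lines for 2382 genes (24.2%).

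None of the 10 genes with the smallest p that were higher in 4N in every line passed the adjusted threshold. They were ZNF79 (a zinc finger protein), RPS27L, SESN1, DDB2, MDM2, ATG4D (an autophagy protease), KRT10 (a keratin), PRICKLE3 (a planar polarity protein), MED27 (a Mediator subunit) and PRKAR1B (a regulatory subunit of protein kinase A). Their differences ranged from 0.25 for PRICKLE3 to 0.50 for DDB2. SESN1, DDB2 and MDM2 are in the list of p53 targets used below, which holds 25 of the 9834 genes tested. RPS27L is known as a p53 target but is not in that list. The 10 that were lower were VHL, COQ7 (coenzyme Q synthesis), RAB20 (a small GTPase), SPIN2B (a spindlin family protein), CTGF, MT2A (a metallothionein), INTS7 (an Integrator subunit), NR1D2 (a clock repressor), HOXA9 and NR2F1 (transcription factors). Their differences ranged from −0.18 for INTS7 to −1.24 for NR2F1.

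**Figure D1:**
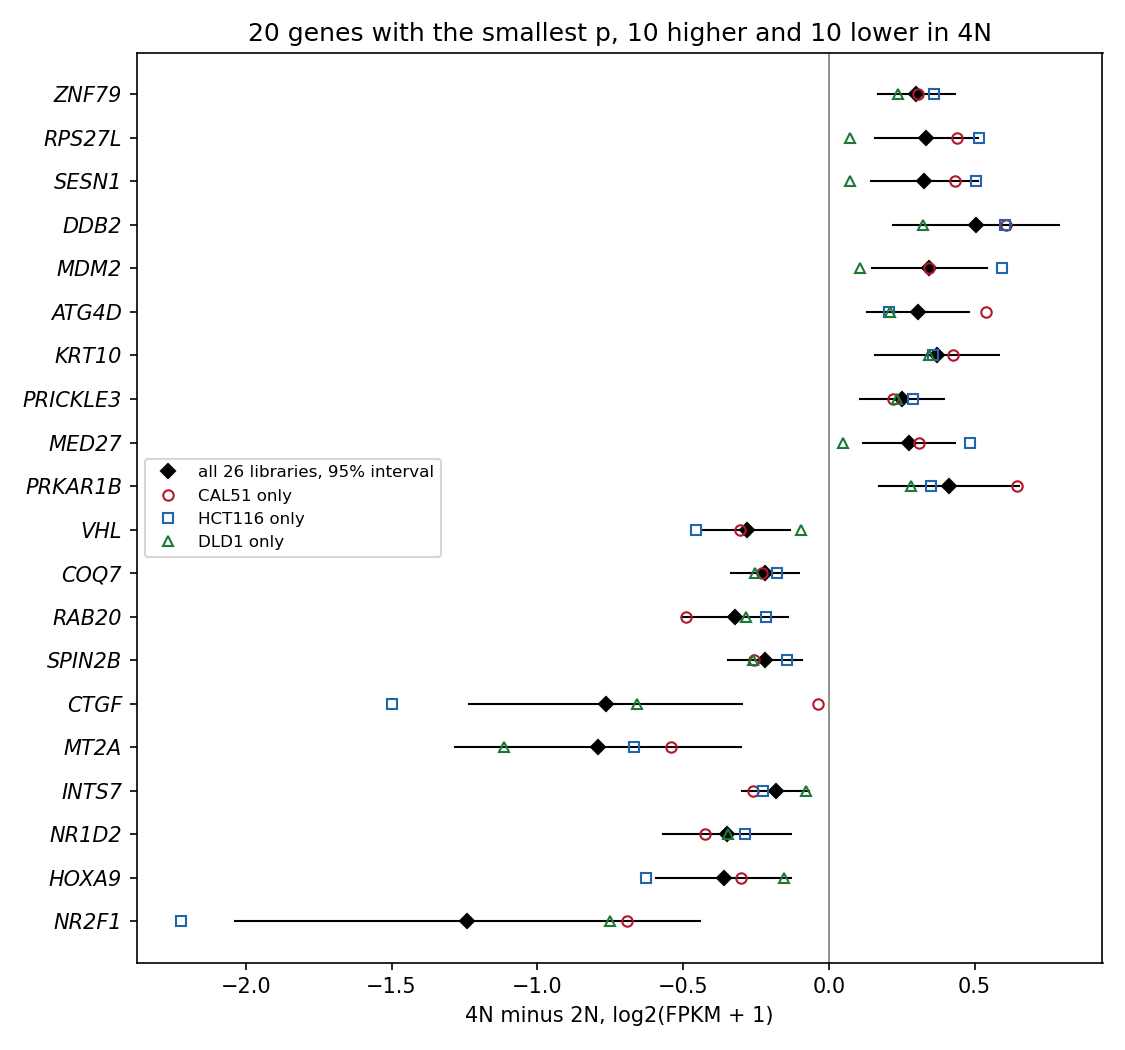
The 20 genes with the smallest p among those with 1 sign in all 3 lines, as 4N minus 2N on the log2(FPKM + 1) scale. Black diamonds with bars are the fit over all 26 libraries with its 95% interval and open symbols are the single lines, and the largest spread between lines is that of CTGF and NR2F1, whose HCT116 values are −1.50 and −2.22.

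ZNF79 (ENSG00000196152, chromosome 9, 127424374 to 127445372, plus strand) had the smallest p of all. Its level was 3.47, 4.82, 4.37 and 4.31 FPKM in the CAL51 4N clones and 3.30, 3.38 and 2.98 FPKM in the CAL51 2N libraries. In HCT116 it was 2.23 at the lowest, 2.49 at the median and 2.83 FPKM at the highest in the 6 4N clones and 1.65, 1.57 and 1.94 FPKM in the 2N libraries. The 4N and 2N groups did not overlap in these 2 lines. In DLD1 they did, at 1.48 to 2.80 FPKM (median 2.02) in the 7 4N clones and 1.88, 1.23 and 1.58 FPKM in the 2N libraries. Over all lines it differed by 0.30 ± 0.065 (SE; 95% interval 0.17 to 0.43; limma, adjusted p = 0.765).

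VHL, which marks hypoxia-inducible factors for destruction (ENSG00000134086, chromosome 3, 10141008 to 10152220, plus strand), led the genes that were lower. Its level was 14.4, 13.3, 14.3 and 14.3 FPKM in the CAL51 4N clones and 18.2, 18.6 and 16.2 FPKM in the CAL51 2N libraries. In HCT116 it was 14.4 to 22.1 FPKM (median 18.4) in the 4N clones and 22.6, 24.8 and 27.5 FPKM in the 2N libraries. Again the groups did not overlap in CAL51 and HCT116 and overlapped in DLD1, where the 4N clones had 11.7 to 14.7 FPKM (median 14.1) and the 2N libraries 14.4, 13.2 and 16.3 FPKM. Pooled over the lines, the difference was −0.28 ± 0.072 (95% interval −0.43 to −0.13; limma, adjusted p = 0.765). COQ7 was the one of the 20 that separated the groups in DLD1, with 4.97 to 5.85 FPKM (median 5.23) in the 4N clones and 6.13, 7.14 and 6.39 FPKM in the 2N libraries.

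No gene kept its 4N and 2N libraries apart in all 3 lines in 1 direction (0%). In 2 lines, 19 genes did so with 4N higher (0.193%) and 8 with 4N lower (0.0814%). ZNF79, SESN1 and the proteasome gene PSMC3 were among those higher, and VHL and INTS7 among those lower. Within single lines, the groups did not overlap for 232 genes higher (2.36%) and 158 lower (1.61%) in CAL51 4N clones, for 362 higher (3.68%) and 292 lower (2.97%) in HCT116 4N clones, and for 67 higher (0.681%) and 76 lower (0.773%) in DLD1 4N clones.

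The p53 targets had the highest median difference of the lists with more than 10 genes tested. All 25 of the tested members (of 30 written) were higher in 4N over the 26 libraries, with a median of 0.21, against a median of 0.006 and 52.2% higher over all genes tested. Of these 25, 9 were higher at an unadjusted p below 0.05 (3.77% of all genes were) and 0 lower, and 0 passed the adjusted threshold. The list was chosen with earlier results of these data known, and its members share a regulator and are not independent, so the count is a description. The median was 0.41 in CAL51 (24 of 25 higher, where 55.5% of all genes were higher), 0.37 in HCT116 (19 higher, against 52.7%) and 0.07 in DLD1 (16 higher, against 46.7%). It was 0.20 in the large and 0.22 in the small clones, each set against the same 9 2N libraries. With each library left out in turn the median stayed between 0.17 and 0.25, and 22 to 25 members were higher. Without DLD1 it was 0.32, and without CAL51 it was 0.15 with 20 of 25 higher. The members lower on average in the HCT116 4N clones were GDF15, SESN2, BBC3, GADD45A, TNFRSF10B and PMAIP1, looked up after their values were seen. Against the HCT116 2N mean, GDF15, SESN2 and BBC3 were at −2.56, −1.65 and −2.01 in large clone 3. In large clone 2 they were at 0.33, 0.93 and 0.53.

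SESN1, a stress-induced inhibitor of mTOR signalling (ENSG00000080546, chromosome 6, 108986437 to 109094819, minus strand), had the smallest p of the list. Its level was 4.21, 4.70, 7.68 and 3.88 FPKM in the CAL51 4N clones and 3.49, 3.03 and 3.76 FPKM in the 2N libraries. In HCT116 it was 2.78 to 4.56 FPKM (median 3.77) in the 4N clones and 1.98, 2.63 and 2.35 FPKM in the 2N libraries. The groups did not overlap in either line, although in CAL51 the margin between the lowest 4N and the highest 2N library was small. In DLD1 the levels were low and close together, at 1.20 to 1.50 FPKM (median 1.40) in the 4N clones and 1.21, 1.33 and 1.25 FPKM in the 2N libraries. With all lines together, 4N minus 2N was 0.33 ± 0.089 (95% interval 0.14 to 0.51; limma, adjusted p = 0.765).

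DDB2, whose promoter is shown above, binds UV-damaged DNA to start nucleotide excision repair (ENSG00000134574, chromosome 11, 47214465 to 47239240, plus strand). Its level was 7.20, 12.8, 15.5 and 6.83 FPKM in the CAL51 4N clones and 4.62, 7.86 and 6.57 FPKM in the 2N libraries. In HCT116 it was 7.21 to 20.5 FPKM (median 13.9) in the 4N clones and 8.51, 7.40 and 9.42 FPKM in the 2N libraries. In DLD1 it was 2.71 to 4.75 FPKM (median 4.11) in the 4N clones and 3.07, 2.66 and 2.54 FPKM in the 2N libraries. The groups overlapped in each line, with 2 of the 4 CAL51 clones, 5 of the 6 HCT116 clones and 4 of the 7 DLD1 clones above every 2N library of their line. The pooled difference was 0.50 ± 0.14 (95% interval 0.22 to 0.79; limma, adjusted p = 0.765). In large clone 2 of CAL51, the highest of that line, the genes of chromosome 11 as a whole were shifted by 0.26, and the part of this shift in the DDB2 value was not tested.

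MDM2, which keeps p53 low and is itself a p53 target (ENSG00000135679, chromosome 12, 68808176 to 68850686, plus strand), separated the groups only in HCT116. There its level was 10.8 to 18.1 FPKM (median 12.7) in the 4N clones and 8.16, 8.14 and 9.27 FPKM in the 2N libraries. In CAL51 it was 9.35, 10.7, 17.9 and 9.81 FPKM in the 4N clones and 8.32, 9.55 and 8.83 FPKM in the 2N libraries. In DLD1 it was 3.53 to 5.14 FPKM (median 4.03) in the 4N clones and 4.08, 3.28 and 3.90 FPKM in the 2N libraries. Of the 4 CAL51 clones, 3 were above all 2N libraries, and the DLD1 groups lay over each other. Over all lines it differed by 0.34 ± 0.096 (95% interval 0.15 to 0.54; limma, adjusted p = 0.765), and it was 0.21 without HCT116. RPS27L, a ribosomal protein paralog known as a p53 target and not in the written list, averaged 0.44 higher in CAL51 4N, 0.52 higher in HCT116 4N and 0.07 higher in DLD1 4N (pooled 0.33 ± 0.086; limma, adjusted p = 0.765), and its reads can be shared with its paralog RPS27.

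POLH and FDXR, the next members by p, were chosen after their values were seen. POLH, a DNA polymerase that bypasses UV lesions, differed by 0.27 ± 0.081 and FDXR, a mitochondrial reductase, by 0.37 ± 0.12 (limma, adjusted p = 0.765 for both). BAX, which permeabilises mitochondria in apoptosis, differed by 0.30 ± 0.14 (limma, adjusted p = 0.767). Its level was 62.2, 107, 56.8 and 56.8 FPKM in the CAL51 4N clones. The CAL51 2N libraries had 43.9, 48.8 and 49.8 FPKM, and the groups did not overlap. HCT116 small clones 1 to 3 had 38.1, 29.8 and 17.7 FPKM and large clones 1 to 3 had 45.9, 38.8 and 19.3 FPKM. The HCT116 2N libraries had 21.5, 21.2 and 21.995 FPKM, so small clone 3 and large clone 3 were below all of them. In DLD1 the groups overlapped, at 19.99 to 26.5 FPKM in the 4N clones and 23.3, 30.5 and 20.2 FPKM in the 2N libraries.

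CDKN1A, which encodes the cell cycle inhibitor p21 and is the classical p53 target, had a large but uneven difference of 0.53 ± 0.31 (95% interval −0.11 to 1.16; limma, adjusted p = 0.807). Its level was 53.8, 147, 162 and 53.4 FPKM in the CAL51 4N clones and 41.6, 27.3 and 62.8 FPKM in the 2N libraries. In HCT116 it was 97.2 to 352 FPKM (median 206) in the 4N clones and 87.5, 74.9 and 135 FPKM in the 2N libraries. In DLD1 it was far lower per length, at 1.34 to 10.0 FPKM (median 3.04) in the 4N clones and 2.98, 2.18 and 12.4 FPKM in the 2N libraries. The groups overlapped in every line, and the difference was 1.11 in CAL51, 1.04 in HCT116 and −0.44 in DLD1. CDKN1A was chosen after its values were seen.

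The mean of the p53 targets showed which clones carried the difference. Relative to the 2N libraries of the line, it was 0.12, 0.57, 0.78 and 0.19 in CAL51 small clone 1 and large clones 1, 2 and 3. The CAL51 2N libraries, each set against the other 2N libraries of the line, were at −0.01, −0.20 and 0.21. In HCT116 it was 0.22, 0.34 and 0.37 in small clones 1 to 3 and 0.13, 0.66 and −0.27 in large clones 1 to 3, and the 2N libraries were at −0.09, −0.22 and 0.31. Large clones 1 and 2 of CAL51 and large clone 2 of HCT116 were well above every 2N library, whereas large clone 3 of HCT116 was below all of its 2N libraries. In DLD1 the 4N clones lay between −0.10 and 0.15 and the 2N libraries at −0.09, −0.06 and 0.14. The highest 2N library was clone 2N2 in each line, and 2N clones against parental libraries gave a median of 0.08 over the list with 18 of 25 higher, where 56% of all genes were higher in the clones.

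**Figure D2:**
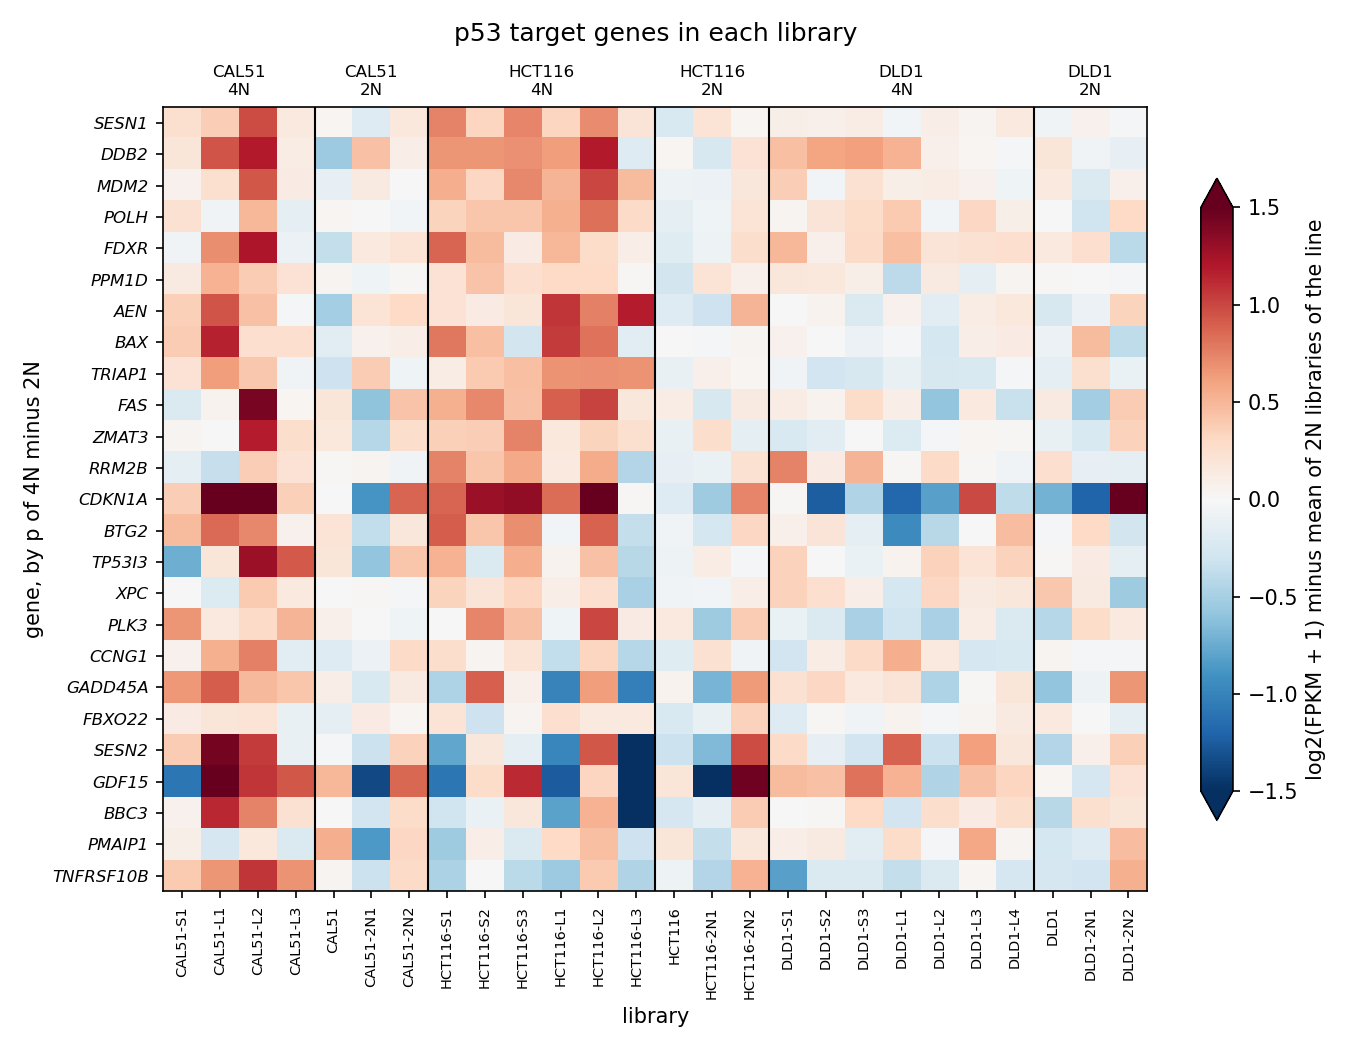
Heat map of the 25 tested p53 targets (down, by p) in each of the 26 libraries (across, 4N left of 2N within a line); colour is log2(FPKM + 1) minus the mean of the 2N libraries of the line, or of the other 2N libraries for a 2N library. Mostly red 4N columns are large clones 1 and 2 of CAL51 and the small clones and large clone 2 of HCT116. Clone 2N2 of HCT116 and clone 2N2 of CAL51 are mostly red as well, and the DLD1 columns are paler.

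The PIDDosome and tetraploidy checkpoint genes were on the other side of 0. Of 12 tested, 2 were higher and 10 lower in 4N, with a median of −0.07 and 0 at an unadjusted p below 0.05. Of all genes tested, 52.2% were higher and 6.21% had such a p. The median was −0.15 in CAL51, −0.14 in HCT116 and 0.14 in DLD1. MDM4, a p53 inhibitor, differed by −0.12 ± 0.081 (adjusted p = 0.817), and CASP2, the PIDDosome protease, by −0.12 ± 0.10 (adjusted p = 0.848 by limma).

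Immediate early and MAPK feedback genes had the lowest median of the lists with more than 10 genes tested. These are the transcription factors that growth factor signalling switches on within minutes and the inhibitors that MAP kinase signalling induces against itself. Of 28 tested, 24 were lower and 4 higher in 4N, with a median of −0.27, 9 lower and 0 higher at an unadjusted p below 0.05, and 0 past the adjusted threshold. Over all genes tested 52.2% were higher, and 2.44% were lower at an unadjusted p below 0.05. The 9 were NR4A1, FOS, IER2, FOSB, SPRY4, EGR1, SPRY2, DUSP6 and SPRED1. The median was −0.13 in CAL51, −0.51 in HCT116 and −0.11 in DLD1, and 11, 5 and 10 members were higher in the 3 lines. It was −0.25 in the large and −0.18 in the small clones, and 0.05 for 2N clones against parental libraries. Without HCT116 the median was −0.12. Culture density and the time since feeding at harvest are not given in the labels used here, and their part in these values was not tested.

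FOS, a subunit of the AP-1 transcription factor (ENSG00000170345), had 32.6, 4.33, 7.58 and 11.7 FPKM in the CAL51 4N clones (small clone 1, then large clones 1 to 3) and 36.7, 13.3 and 25.7 FPKM in the 2N libraries. In HCT116 it had 19.0 to 85.8 FPKM (median 25.8) in the 4N clones and 131, 110.5 and 171 FPKM in the 2N libraries. The HCT116 groups did not overlap, and all 3 large clones of CAL51 were below its 2N libraries. In DLD1 the 4N clones had 9.77 to 25.9 FPKM (median 14.7) and the 2N libraries 15.6, 10.995 and 9.73 FPKM. Pooled over the lines, the difference was −0.90 ± 0.33 (95% interval −1.58 to −0.22; limma, adjusted p = 0.765). It was −1.04 in CAL51, −2.08 in HCT116 and 0.33 in DLD1 (test of a difference between lines, adjusted p = 0.767), −1.39 in the large and −0.17 in the small clones. The FOS value moved to −1.60 without DLD1 and to −0.29 without HCT116. NR4A1, an orphan nuclear receptor induced by the same signals, had 6.46 to 16.2 FPKM (median 11.6) in the HCT116 4N clones and 28.0, 16.0 and 31.0 FPKM in the HCT116 2N libraries (pooled −0.55 ± 0.18; limma, adjusted p = 0.765).

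In HCT116 the mean of the Immediate early and MAPK feedback list was −0.48, −0.52 and −0.33 in the small clones and −0.82, −0.49 and −1.08 in the large clones, and 0.06, −0.31 and 0.25 in the 2N libraries. Each 2N library was set against the other 2N libraries of its line, which widens its deviations. All 6 clones were below all 3 2N libraries, and small clone 3 was the nearest to them. In CAL51 the 4N clones were at −0.08, −0.30, −0.31 and 0.09 and the 2N libraries at 0.25, −0.30 and 0.04, so those groups overlapped.

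CTGF and CYR61, matrix proteins that YAP and TAZ induce when Hippo signalling is low, were the leading members of the Hippo, YAP and TAZ targets list. CTGF had 0.194 to 3.54 FPKM (median 2.19) in the HCT116 4N clones and 6.09, 6.25 and 8.47 FPKM in the 2N libraries. In DLD1 it had 2.64 to 8.06 FPKM (median 2.86) in the 4N clones and 7.84, 4.36 and 7.70 FPKM in the 2N libraries. The HCT116 groups were apart, and the DLD1 groups overlapped through 2 of the 7 4N clones. In CAL51, where CTGF was abundant, the 4N clones had 113, 179.9, 136 and 338 FPKM and the 2N libraries 179.9, 138 and 234 FPKM. The pooled difference of CTGF was −0.77 ± 0.23 (95% interval −1.23 to −0.30; limma, adjusted p = 0.765) and came to −0.38 without HCT116. CYR61 differed by −0.77 ± 0.25 (adjusted p = 0.765), at 10.2 to 38.6 FPKM (median 19.7) in the HCT116 4N clones and 75.5, 49.0 and 82.6 FPKM in the 2N libraries, but it differed by 0.29 in CAL51. Of the 21 tested members of this list, 7 were higher and 14 lower, with a median of −0.08, against 52.2% higher and a median of 0.006 over all genes.

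**Figure D3:**
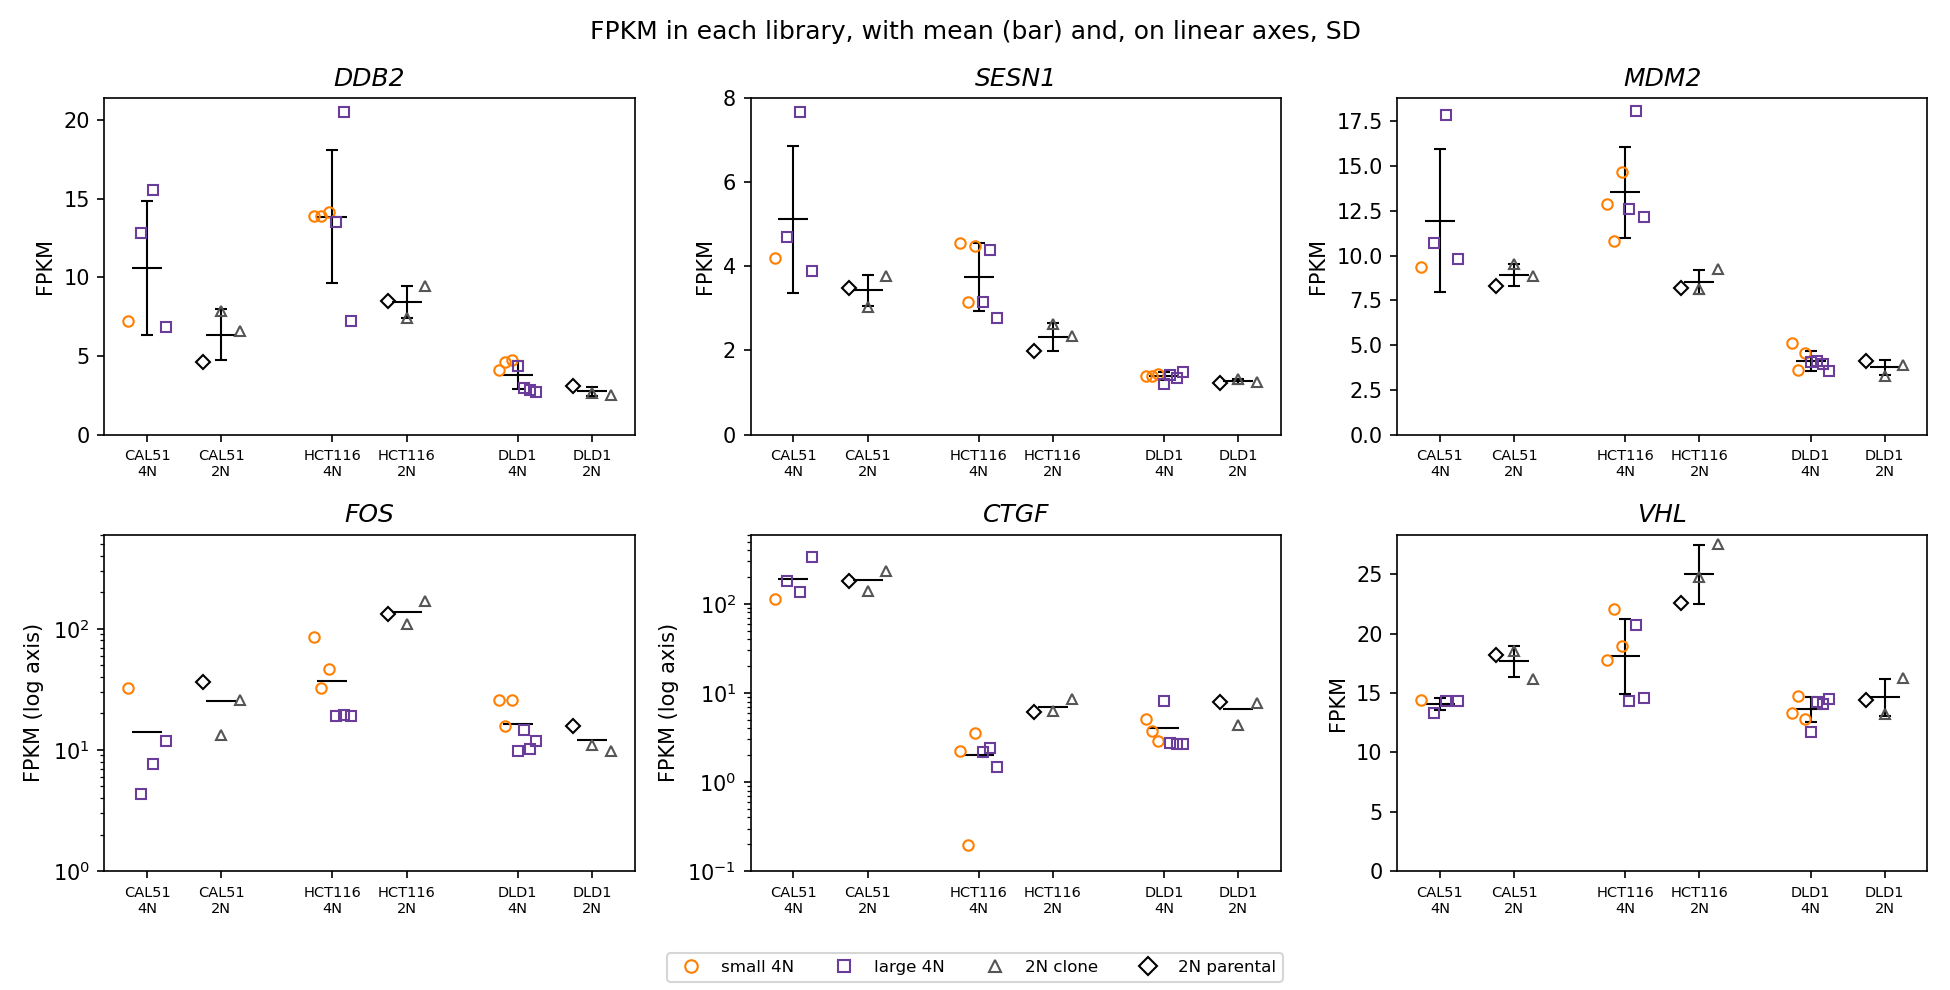
FPKM of DDB2, SESN1, MDM2, FOS, CTGF and VHL in every library, 4N left of 2N within each line; horizontal bars are group means, vertical bars on linear axes are SD, and FOS and CTGF are on log axes. The 4N and 2N points are apart in HCT116 for SESN1, MDM2, FOS, CTGF and VHL, and overlap in DLD1 for all 6 genes.

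The TGF-beta, BMP and ID list and the Integrins and matrix list were lower in 4N by their medians. Over all genes tested the median was 0.006 and 52.2% were higher. The adherens and tight junction list was not lower, with 13 of 23 higher and a median of 0.02. The TGF-beta, BMP and ID list had 3 of 17 tested members higher and a median of −0.18 (−0.09 without HCT116, −0.08 with array weights and −0.31 over the 9 members left by an FPKM minimum of 5), and the receptor TGFBR2 and the signal transducer SMAD3 differed by −0.44 ± 0.18 and −0.26 ± 0.12 (limma, adjusted p = 0.765 and 0.778). Among integrin and matrix genes, 6 of 24 were higher and the median was −0.14, or −0.08 without clone 2N2 of DLD1. At an unadjusted p below 0.05 (limma), 0 of these 24 were lower and 1 was higher. In the TGF-beta, BMP and ID list 2 were lower and 0 higher. Of all genes tested, 2.44% were lower and 3.77% higher at such a p. SLC7A11, the cystine transporter, differed by −0.78 ± 0.30 and NFKBIA, an inhibitor of NF-kB, by −0.33 ± 0.14 (adjusted p = 0.765 for both), and neither stood in a list with a median beyond ±0.05.

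Proteasome subunits had higher medians in 4N in CAL51 and HCT116 and a lower one in DLD1. Over all libraries 35 of 37 tested were higher with a median of 0.13, 6 at an unadjusted p below 0.05 and 0 past the adjusted threshold. Of all genes tested, 52.2% were higher, and 3.77% were higher at an unadjusted p below 0.05. The median was 0.15 in CAL51 (34 higher), 0.36 in HCT116 (35 higher) and −0.09 in DLD1 (4 higher), and 14 members were higher in HCT116 4N without overlap, where 3.68% of all genes were. Without HCT116 the median was −0.001 with 18 of 37 higher, so the pooled value rests on that line. PSMC3, an ATPase of the proteasome cap (ENSG00000165916, chromosome 11, 47418769 to 47426473, minus strand, close to DDB2), had 85.6, 97.7, 79.0 and 75.5 FPKM in the CAL51 4N clones and 66.5, 69.2 and 74.8 FPKM in the 2N libraries. In HCT116 it had 61.2 to 82.7 FPKM (median 71.6) in the 4N clones and 54.8, 48.9 and 53.9 FPKM in the 2N libraries. Both pairs of groups were apart, while in DLD1 the 4N clones had 86.7 to 98.1 FPKM (median 92.9) and the 2N libraries 94.8, 105 and 84.2 FPKM. With all lines together, 4N minus 2N was 0.22 ± 0.069 (limma, adjusted p = 0.765; 0.10 without HCT116), and that of ADRM1, a ubiquitin receptor of the proteasome, was 0.22 ± 0.091 (adjusted p = 0.765).

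By clone, the mean of the Proteasome list was 0.20, 0.12 and 0.46 in the small and 0.58, 0.24 and 0.40 in the large HCT116 clones, and 0.06, −0.05 and −0.01 in the HCT116 2N libraries. The 2N libraries were each set against the other 2N libraries of their line, and all 6 HCT116 clones were above those of HCT116. In CAL51 the 4N clones were at 0.16, 0.37, −0.03 and 0.06 and the 2N libraries at −0.07, 0.08 and −0.01, and in DLD1 the 4N clones lay between −0.19 and −0.02 and the 2N libraries at −0.05, 0.16 and −0.11.

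Nuclear genes of the respiratory chain and the mitochondrial ribosome were likewise higher in 4N by their medians in CAL51 and HCT116 and lower in DLD1. Nuclear oxidative phosphorylation genes were higher for 67 of 72 tested (median 0.11, 7 at an unadjusted p below 0.05), with medians of 0.28 in CAL51, 0.17 in HCT116 and −0.09 in DLD1. Mitochondrial ribosomal proteins were higher for 66 of 74 (median 0.09, 6 at an unadjusted p below 0.05), with medians of 0.20, 0.21 and −0.08 in the same order. Of all genes tested, 52.2% were higher, and 3.77% were higher at an unadjusted p below 0.05. Without CAL51 the median of the Nuclear oxidative phosphorylation list was 0.03, and without HCT116 that of the Mitochondrial ribosomal proteins was 0.04. NDUFS6 of complex I differed by 0.25 ± 0.086, ATP5F1D of ATP synthase by 0.27 ± 0.098, MRPS6 by 0.29 ± 0.10 and MRPL23 by 0.25 ± 0.096 (limma, adjusted p = 0.765 for each). The 13 mitochondrially encoded mRNAs were all lower in the pooled fit with a median of −0.21, which came to −0.55 in DLD1 with 0 of 13 higher, −0.12 in HCT116 with 2 higher and 0.15 in CAL51 with 10 higher. Without DLD1 their median was 0.02. MT-CYB, the cytochrome b of complex III, had 1362 to 2015 FPKM (median 1715) in the DLD1 4N clones and 2453, 2091 and 2961 FPKM in the DLD1 2N libraries, which did not overlap. MT-ND4L had the smallest p of the 13 (−0.29 ± 0.11; limma, adjusted p = 0.765). Left out alone, clone 2N2 of DLD1 moved the median of the 13 to −0.13, still with 0 higher.

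Genes that build and divide the doubled chromosome set had pooled medians near 0 that covered differences between the lines. They were 0.03 for 50 DNA replication genes (35 higher), 0.01 for 39 kinetochore and spindle checkpoint genes (22 higher), 0.03 for 37 spindle and cytokinesis genes (22 higher), −0.01 for 34 centrosome genes (13 higher), −0.03 for 25 cohesin and condensin genes (10 higher) and 0.03 for 23 genes of a chromosomal instability signature (16 higher). The spindle and cytokinesis genes had a median of −0.08 in CAL51 with 8 of 37 higher, 0.06 in HCT116 with 20 higher and 0.12 in DLD1 with 30 higher. DNA replication genes had −0.02 in CAL51 with 22 of 50 higher, 0.14 in HCT116 with 44 higher and −0.01 in DLD1 with 24 higher. Cohesin and condensin genes had −0.17 in CAL51 with 4 of 25 higher, 0.03 in HCT116 with 16 higher and 0.05 in DLD1 with 19 higher. TYMS, the thymidylate synthase, differed by 0.25 ± 0.092, the spindle protein SPAG5 by 0.20 ± 0.079, the anaphase activator CDC20 by 0.22 ± 0.096 and the replication licensing factor CDT1 by 0.15 ± 0.077 (limma, adjusted p = 0.765 for the first 3 and 0.786 for CDT1). The tubulins TUBA1B and TUBB differed by 0.22 ± 0.087 and 0.18 ± 0.074 (adjusted p = 0.765 for both), within a list whose median was 0.03. Of 39 genes of the actin and myosin system that the drugs act on, 24 were higher and the median was 0.05. Of 77 cytosolic ribosomal proteins, 34 were higher, and the median of −0.02 was made up of 0.13 in CAL51 and −0.06 and −0.08 in HCT116 and DLD1.

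**Figure D4:**
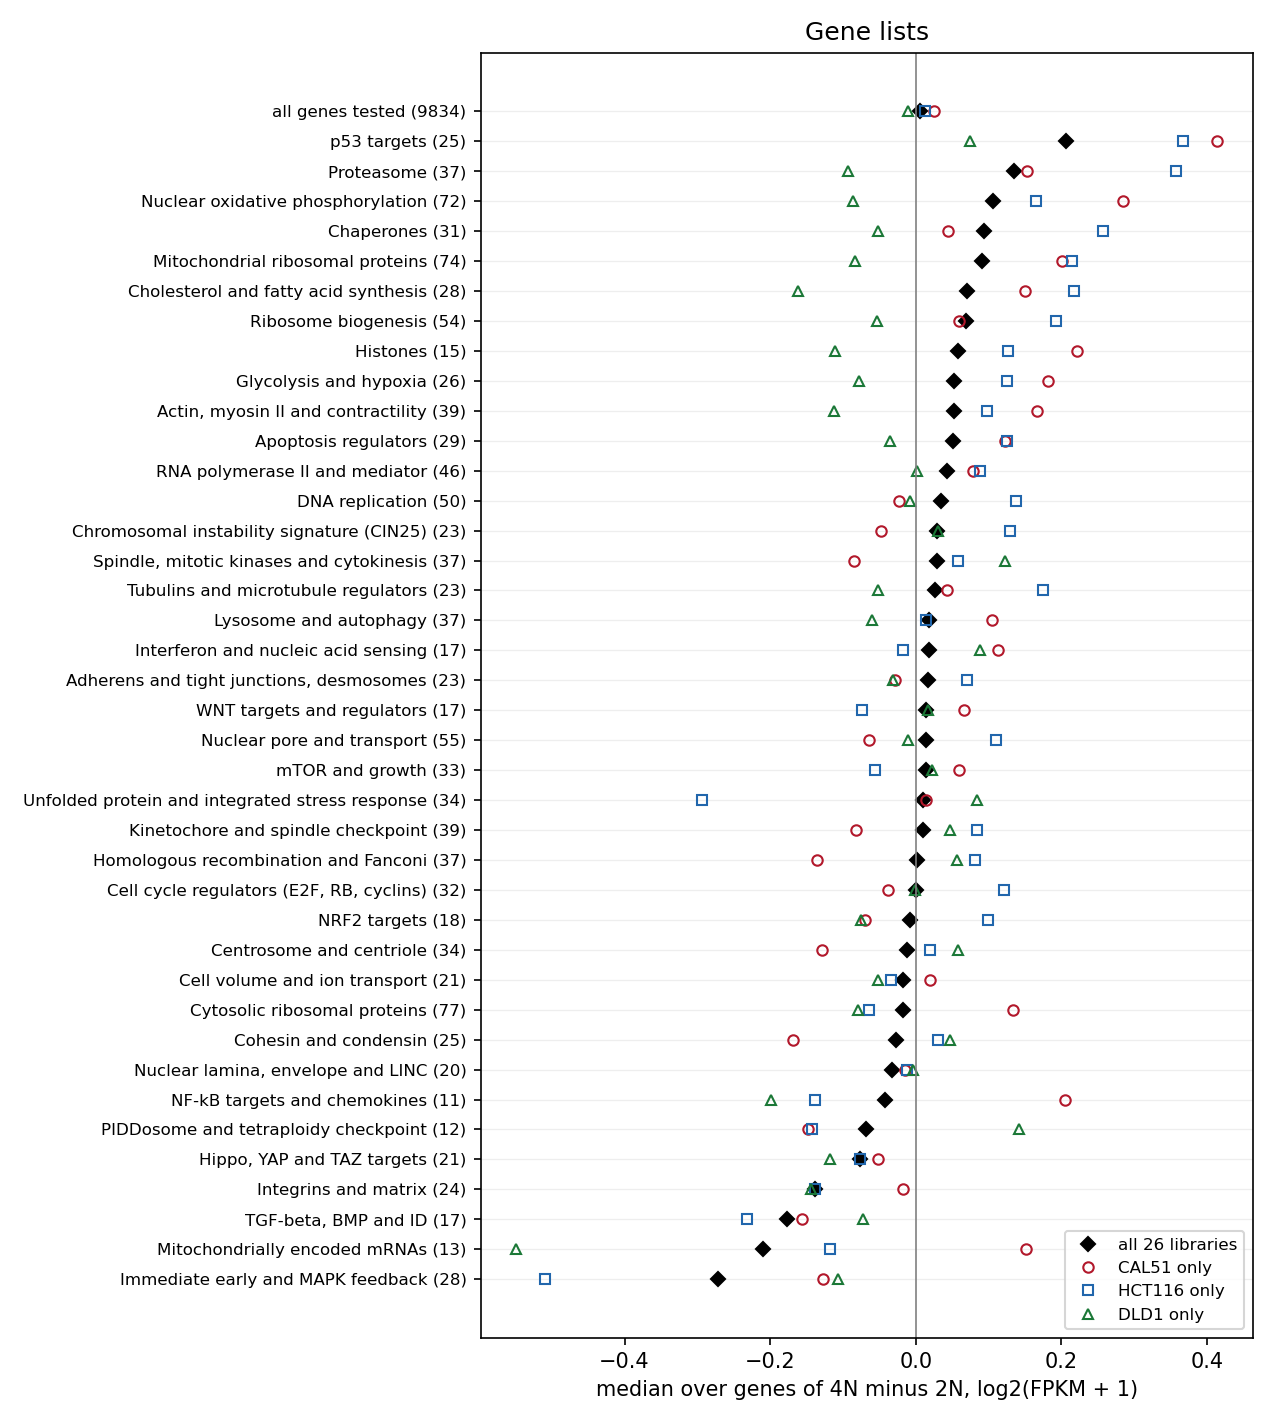
Median over genes of 4N minus 2N, log2(FPKM + 1), for each list with 11 or more genes tested (number in brackets), over all 26 libraries (diamonds) and in each line (open symbols). The p53 targets stand highest at 0.21 and the immediate early and MAPK feedback genes lowest at −0.27, and DLD1 lies left of 0 for the proteasome and oxidative phosphorylation lists where CAL51 and HCT116 lie right of it.

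Separating the 4N clones by size class gave no call either. Large 4N against 2N gave 0 genes (0%; 883 at an unadjusted p below 0.05, 8.98%; smallest adjusted p 0.478) and small 4N against 2N gave 0 (0%; 543, 5.52%; 0.232), and both comparisons share the 9 2N libraries. A contrast of 4N against 2N was also taken for each line, from a fit of all lines with a shared spread. It gave 0 in CAL51 (0%; 541, 5.5%; smallest adjusted p 0.0734), 0 in HCT116 (0%; 1084, 11%; 0.132) and 0 in DLD1 (0%; 230, 2.34%; 0.9998). A test of a ploidy difference that varies between lines also gave 0 genes (0%; 565, 5.75%; 0.665), so differences between lines in the values above did not pass a test gene by gene. Cloning without a change of ploidy, 2N clones against parental libraries, gave 0 genes (0%) and 69 at an unadjusted p below 0.05 (0.702%). This contrast used a spread shared by all 26 libraries, 17 of them 4N clones. The median over genes of the SD among 4N and among 2N libraries was 0.272 and 0.137 in CAL51, 0.243 and 0.0899 in HCT116, and 0.154 and 0.143 in DLD1. A low count here therefore does not show that cloning alone changes little.

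The 4N clones differed among themselves by more than the 2N libraries did in HCT116. The distance between 2 libraries, taken as the SD over genes of their log2 difference, had a median of 0.434 between HCT116 4N clones (0.346 to 0.610) and 0.192 between HCT116 2N libraries (0.171 to 0.245). The mean distances were 0.449 and 0.203, a difference that was the largest of the 84 ways to relabel the libraries (exact permutation test, two-sided, p = 0.0119, the smallest possible, adjusted over 3 lines p = 0.0357). In CAL51 the median was 0.558 (0.453 to 0.614) between 4N clones and 0.387 (0.265 to 0.390) between 2N libraries (means 0.549 and 0.347; exact p = 0.0857, adjusted p = 0.129). In DLD1 it was 0.324 (0.235 to 0.370) and 0.313 (0.254 to 0.329) (means 0.319 and 0.299; exact p = 0.675). This test was chosen after the data were seen, and only 2 of the 3 2N libraries of a line are clones. Between these 2 clones alone the distance was 0.390 in CAL51, 0.245 in HCT116 and 0.329 in DLD1.

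Ploidy took 4.98% of the variance within lines, against 4.35% for its share of the degrees of freedom (1 of 23).

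**Figure D5:**
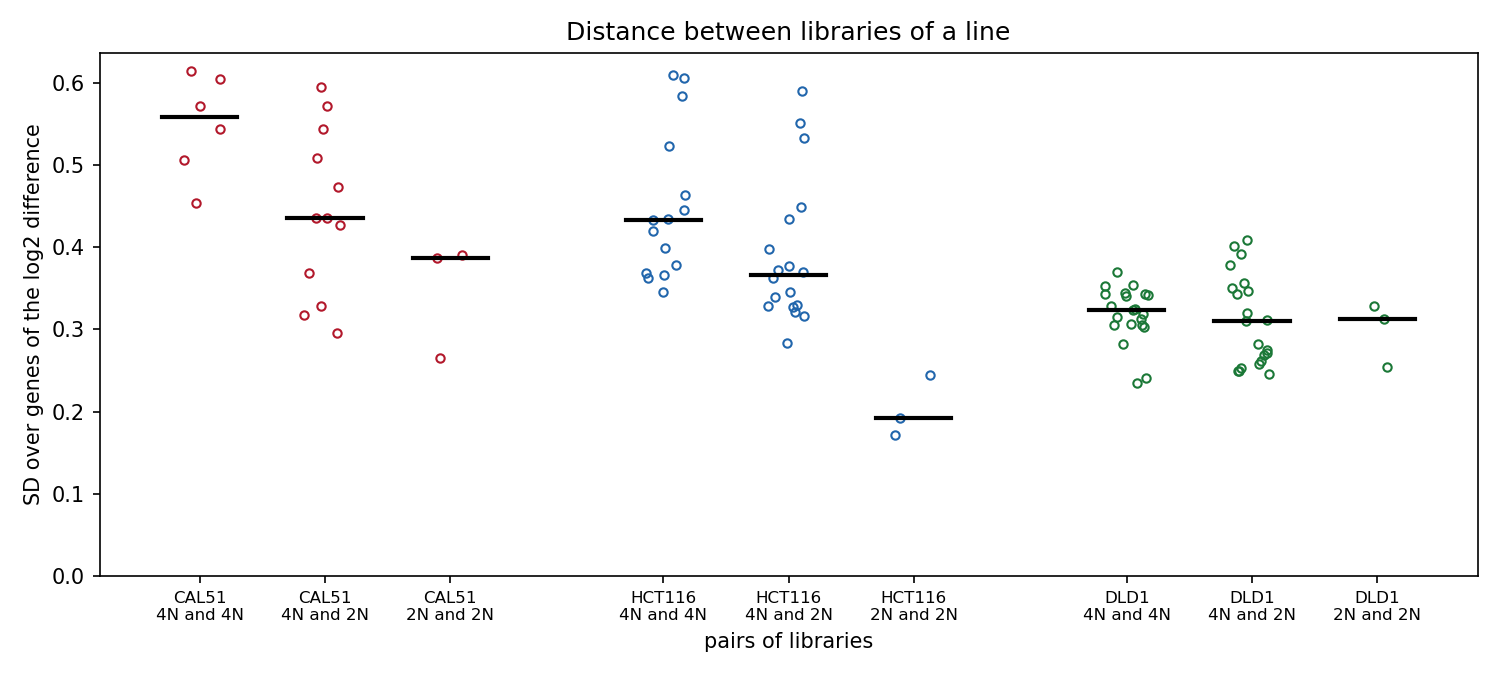
Distance between pairs of libraries of 1 line (SD over the tested genes of their log2 difference) for pairs of 4N clones, a 4N and a 2N library, and pairs of 2N libraries; points are pairs and bars medians. In HCT116 every 4N pair (0.346 or more) exceeds every 2N pair (0.245 or less), and in DLD1 the 3 kinds of pair lie together.

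The medians of whole chromosomes were shifted in some libraries. Over the 23 chromosomes with 50 or more genes tested, the median of a chromosome's genes was shifted by 0.2 or more from the 2N libraries of the line in 15 of 391 combinations of a 4N library and a chromosome, and in 3 of 207 combinations for 2N libraries. By line they were 6 of 92 in 4N and 2 of 69 in 2N for CAL51, 3 of 138 in 4N and 1 of 69 in 2N for HCT116, and 6 of 161 in 4N and 0 of 69 in 2N for DLD1. Each 4N library was set against all 3 2N libraries of its line. Each 2N library was set against the other 2 only, which widens its deviations, so the 4N and 2N counts are not on the same scale. How much of the distance between clones goes with these shifts was not tested. Large clone 1 of CAL51 held 4 of the 6 shifts of the CAL51 4N libraries, with 0.29 on chromosome 19 and −0.29 on chromosome 13. Many of its other chromosomes moved too, by 0.19 on 16, 0.18 on 22, −0.25 on 18, −0.20 on 4 and −0.18 on 21. Whether its values reflect single chromosomes or a bias across the whole library was not tested. Large clone 2 of CAL51 held a shift of 0.26 on chromosome 11. Small clone 3 of HCT116 held 1 of −0.40 on chromosome 15 and large clone 2 of DLD1 1 of −0.30 on chromosome 10. On chromosome 15 of HCT116 the 2N libraries themselves differed, with clone 2N2 at 0.36 and the parental library and clone 2N1 at −0.18 and −0.17, and all 6 4N clones of the line were below 0, so these values rest in part on 1 shifted 2N clone. Chromosome 7 was shifted in large clones 2 and 4 of DLD1, by −0.27 and −0.26. The pooled medians stayed between −0.047 on chromosome 15 and 0.059 on chromosome 19. Copy number was not analysed here.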

How the data were processed

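Poly-A RNA was sequenced from directional dUTP libraries, per the labels' protocols. The authors deposited FPKM per gene; fastp, HISAT2 version 2.0.5, featureCounts version 1.5.0-p3, DESeq2 and GRCh38 are named in the submitters' processing notes. Dividing the FPKM values by their steps gave whole reads (within 0.01) for 100% of values, which gave each library's depth.

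The test covered the 9834 genes whose mean FPKM reached 1 in each line, as log2(FPKM + 1). Cell line and ploidy were the terms of a limma fit (limma 3.58.1, R 4.3.3) with an intensity trend, two-sided tests and Benjamini-Hochberg adjustment over all genes tested at 0.05. Parental libraries counted as 2N. Size classes, single lines, line by ploidy and 2N clones against parental libraries were fitted on the same genes and all 26 libraries, with a spread shared across them. The script was tested on simulated data. The members and the 45 gene lists were chosen with earlier results of these data known. Named genes are the 10 in each direction with the smallest p and 1 sign in all lines, and up to 2 per list; others are said to have been chosen after their values were seen. Lists were described by counts and medians. Alternatives were another pseudocount and filters, rescaling, voom on the recovered reads, array weights, chromosome centring, and leaving out libraries or lines.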

Additional observations from a re-analysis of the deposited data

Results flagged for a closer look

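Within the 4N clones of a line, 159 sets of values (53 genes and list means in 3 lines) were examined for a single library far from the others, of which chance gives about 1 in 20, and 11 were found. Values are log2(FPKM + 1) minus the mean of the 2N libraries of the line.

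In CAL51, large clone 1 was far from the other clones for BAX (1.15, next 0.38), CASP2 (−0.50, next 0.05) and VHL (−0.38, next −0.28), large clone 2 for HOXA9 (−0.78, next −0.17) and large clone 3 for ATG4D (−0.040, next 0.69). In HCT116, large clone 3 stood apart for PRKAR1B (1.02, next 0.31) and MRPS6 (0.73, next 0.29), large clone 2 for SMAD3 (0.088, next −0.45) and small clone 1 for ATP5F1D (−0.38, next 0.06). In DLD1, small clone 1 stood apart for RAB20 (0.092, next −0.22) and large clone 4 for MT-ND4L (−1.03, next −0.51).

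Opposite directions in every clone of 2 lines were found for 2 lists. The mean of the Proteasome list was at 0.33 in HCT116 and −0.10 in DLD1, and that of the Nuclear oxidative phosphorylation list at 0.15 in HCT116 and −0.089 in DLD1. The differences between lines were not tested for the lists.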

How the results depend on the processing

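The count of genes in 4N versus 2N was 0 under all 15 alternatives and with each of the 26 libraries left out. The smallest adjusted p was then 0.0866, without DLD1. Of 1912 alternative values for the 47 named genes, 0 passed the threshold and 0 changed sign. Most of these genes were picked by a small p in the same data, and the leading 10 in each direction also by 1 sign in all lines. The absence of sign changes therefore follows in part from that choice. Of these genes, 30 moved by more than 1.5 times under some alternative, and for 22 of them the smallest size was found without HCT116. A line by ploidy difference was called for 8 genes when the filter asked for an FPKM of at least 1 in any 3 libraries (14835 genes). With 1 library left out, line by ploidy calls ran from 0 to 3 (3 without small clone 1 of CAL51, 1 without clone 2N1 of CAL51), 2N clones against parental from 0 to 8 (8 without the HCT116 parental library), small 4N against 2N from 0 to 1 (1 without small clone 3 of HCT116) and large 4N against 2N from 0 to 0. The cause was not tested.

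Over 16 pairs of libraries with the same clone number in different classes of a line, the correlation of deviations ran from −0.05 to 0.26. Pairs with different numbers were not set beside them, so whether clone numbers mark a pairing was not tested. With the replicate number as a block (replicate block, parental libraries left out) 0 genes were called.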
